A study of Rattus norvegicus with 6 samples.

Results

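Tumour necrosis factor (TNF), its receptors, 4 proteins of the receptor complex and 3 genes that TNF is known to induce were examined in rat bone marrow stromal cells (rBMSCs), plastic-adherent cells of the marrow that serve as precursors of osteoblasts, chondrocytes and adipocytes. The 10 genes were Tnf, Tnfrsf1a, Tnfrsf1b, Traf1, Traf2, Tradd, Ripk1, Tnfaip2, Icam1 and Cx3cl1. They were chosen by gene name on the array, by a rule that uses no signal, although the set was drawn up with earlier results of these arrays known, and 11 of the 45598 probes carry these names. All 10 were bright enough to be tested, among 19571 genes tested in all. RNA was taken after 7 days of culture on titanium modified with tantalum (Ta, n = 3 arrays) or on plain titanium, called the simple Ti surface in the titles (Ti, n = 3 arrays). Per the labels, all cells came from the marrow of rat tibias, and the design text calls the 3 experiments of each group independent; animals, age and strain are not given in the sources used here. The treatment text of the Ti samples names the Ta surface too, so groups were taken from the sample titles.

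TNF is a trimeric cytokine made mainly by macrophages and shed from the cell surface by a protease. It binds TNFR1, the product of Tnfrsf1a, which nearly all cells carry, and TNFR2, the product of Tnfrsf1b, whose expression is more restricted and inducible. Bound TNFR1 gathers TRADD, RIPK1 and TRAF2, and from that complex cells either switch on the transcription factor NF-kB or enter cell death. In bone, TNF is known for promoting osteoclasts and for holding back osteoblast formation.

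The arrays read each gene with probes of 60 bases. Tnf was the only member with 2 probes (9 had 1), and both are shown because they differed in brightness relative to background. In the coordinates of the array's annotation (rn4, the build named in the file headers), the first lies at chr20:3662706-3662765 and the second at chr20:3663558-3663617, both on the plus strand and 792 bases apart. The capitals in the part of the second probe mark AATAAA, the canonical letters of a polyadenylation signal.
Tnf, first probe: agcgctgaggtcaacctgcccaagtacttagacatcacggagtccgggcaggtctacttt
Tnf, 30 bases of the second probe: gtcattgagagaAATAAAgttcgcttggaa

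The probes of Traf1 and Traf2 are shown because these paralogues share sequence in the stretch that the array reads. Placed against each other without gaps, the probes overlap by 35 bases, of which 27 are identical and set in capitals. The Traf2 probe lies at chr3:3693406-3693465 on the minus strand (rn4), and the array's annotation gives the Traf1 probe as unmapped. How far each probe picks up the other transcript was not tested.
Traf1 probe: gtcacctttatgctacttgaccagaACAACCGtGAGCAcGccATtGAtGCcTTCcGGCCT
Traf2 probe: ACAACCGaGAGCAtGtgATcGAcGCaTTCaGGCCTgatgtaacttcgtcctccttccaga

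Promoter windows of the cytokine gene and of both surface molecules induced by TNF are shown next, since Cx3cl1 and Icam1 lie at opposite ends of the measured differences among the response genes. They are the 250 bases before the gene start in RefSeq (GRCr8), which held an entry for 9 of the 10 members. Tnf lies at chr20:3626435-3626684 (plus strand), Icam1 at chr8:27829595-27829844 (plus strand) and Cx3cl1 at chr19:10242821-10243070 (minus strand). Capitals mark matches to GGAANTTCC, a form of NF-kB site that reads the same on both strands, or to TATAAA, the core of the TATA box, each searched on both strands.
Tnf: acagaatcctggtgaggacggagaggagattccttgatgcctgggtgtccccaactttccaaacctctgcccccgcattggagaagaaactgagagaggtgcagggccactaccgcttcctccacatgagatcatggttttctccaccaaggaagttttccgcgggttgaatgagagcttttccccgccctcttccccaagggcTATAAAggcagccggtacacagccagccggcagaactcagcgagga
Icam1: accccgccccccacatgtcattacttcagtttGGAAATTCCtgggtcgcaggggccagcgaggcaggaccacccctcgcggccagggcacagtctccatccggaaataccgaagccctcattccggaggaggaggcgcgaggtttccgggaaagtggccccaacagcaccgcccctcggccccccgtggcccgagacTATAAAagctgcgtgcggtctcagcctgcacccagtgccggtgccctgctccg
Cx3cl1: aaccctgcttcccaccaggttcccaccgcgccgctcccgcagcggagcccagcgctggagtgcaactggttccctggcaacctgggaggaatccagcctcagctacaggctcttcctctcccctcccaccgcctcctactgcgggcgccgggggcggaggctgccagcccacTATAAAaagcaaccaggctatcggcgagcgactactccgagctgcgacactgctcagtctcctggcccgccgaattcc

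TATAAA began 46 bases before the start of Tnf, 53 before Icam1 and 78 before Cx3cl1, and these letters were found in 12.9% of the 33469 promoter windows in the table. GGAANTTCC was found in 0.669% of all windows and, of the 9 members with a window, in Icam1, where it began 218 bases before the start. The longer NF-kB consensus, found in 3.54% of all windows, had no match in the 9 member windows. A match is a run of letters and not a measured binding site, and no match says only that these letters are not in these 250 bases.

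None of the 10 genes passed the test between surfaces (0 of 10 at an adjusted p of 0.05 in limma, where 4.15% of all tested genes passed, 2.67% higher and 1.48% lower on Ta). At an unadjusted p under 0.05 there were 4 members, 2 higher and 2 lower, against 30% of all genes (16.8% higher and 13.2% lower). In 4 members the Ta and Ti arrays did not overlap (3 higher and 1 lower on Ta), against 35.9% of all genes (19.5% higher and 16.4% lower). Both shares are near those of the array as a whole. The log2 difference was above 0 in 8 members and below 0 in 2, with a median of 0.07 over the 10, against 0.03 over all genes. Cx3cl1 stood apart in size, with a difference of 2.61, while the other members lay between -0.60 and 0.42. All differences are Ta minus Ti of log2 signals scaled to the 75th percentile of each array.

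**Figure D1:**
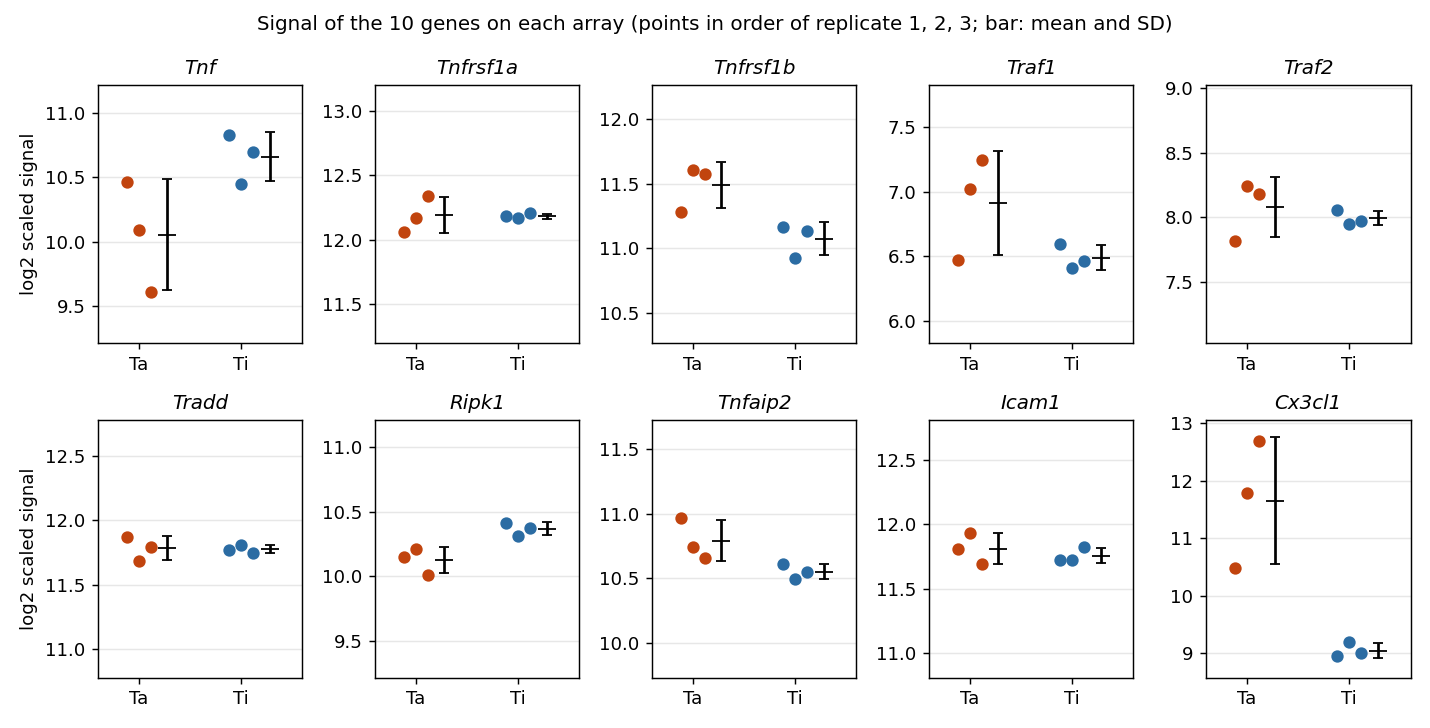
Log2 scaled signal of each of the 10 genes (vertical axis, a range of at least 2 log2 units in each panel) on the 3 Ta arrays, orange and left, and the 3 Ti arrays, blue and right; the bar beside each group is the mean and SD. Cx3cl1 lies at 10.48 to 12.69 on Ta and at 8.95 to 9.19 on Ti, and Tnf is the member with the largest negative difference.

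Tnf, the cytokine itself, gave log2 signals of 10.47, 10.09 and 9.61 on Ta replicates 1, 2 and 3, against 10.82, 10.45 and 10.70 on Ti replicates 1, 2 and 3. Ta replicates 2 and 3 lay below every Ti array, and Ta replicate 1 lay just above Ti replicate 2, so the groups overlapped. The difference was -0.60 ± 0.23 (SE, n = 3 per group, 95% confidence interval -1.16 to -0.05), with an unadjusted p of 0.0376 and an adjusted p of 0.143 in limma. These values come from the second probe shown above, which was well above background on all 6 arrays. The first probe was well above background on 1 of 3 Ta and 2 of 3 Ti arrays and differed by -0.41 ± 0.29 (adjusted p = 0.392). Tnf therefore rests on 1 bright probe, and its other probe was at the edge of detection.

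Markers of macrophages, the main source of TNF, were measured beside it. All 18 macrophage and monocyte markers passed the filter on dim probes, 0 passed the test between surfaces (9 at an unadjusted p under 0.05, where 30% of all genes lay) and 1 (Cd14) lay above 0, with a list median of -0.63. Their mean log2 signal was 11.53, 10.73 and 9.98 on Ta replicates 1, 2 and 3, against 11.80, 11.77 and 11.89 on Ti. Their summed signal was 84655 to 214460 on Ta and 229126 to 294929 on Ti. Such a sum is carried by its brightest genes. Lyz2 was the brightest of the 18 on Ta replicate 1 and on every Ti array. No sum was taken without Lyz2, so how far the gap rests on it is not shown. The order of the 3 Ta arrays was the same for Tnf and for the mean of these markers, with replicate 1 highest and replicate 3 lowest. This order was not particular to them. The means of T and NK cell markers (6.55, 6.08 and 5.76) and of endothelial markers (6.42, 6.04 and 5.71) had it too. On Ti the highest array was replicate 1 for Tnf and replicate 3 for the macrophage mean. Lyz2, the lysozyme gene of myeloid cells, was picked after its values were seen. It lay at 16.01, 14.27 and 12.74 on Ta, against 16.85, 16.37 and 16.94 on Ti (-2.38 ± 0.77, adjusted p = 0.105). The 18 markers differed unequally, with C1qa, C1qb and C1qc at -2.79, -2.83 and -3.08. Adgre1 (-0.15 ± 0.27), Itgam (-0.22 ± 0.26), Spi1 (-0.25 ± 0.18) and Cd68 (-0.28 ± 0.19) lay nearer 0, with overlap between groups. The 13 tested of 14 stromal markers had a mean of 13.25 to 13.30 on Ta and 13.20 to 13.27 on Ti. Of these 13, 2 rose, Cxcl12 by 1.06 ± 0.19 (adjusted p = 0.0452) and Thy1 by 0.67 ± 0.11 (0.0437), and 7 lay below 0, among them Col3a1 (-0.68 ± 0.16, adjusted p = 0.0662). The part of the macrophage markers in the Tnf values was not tested, and in RNA of whole cultures fewer cells of a type and less RNA per cell cannot be told apart.

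**Figure D2:**
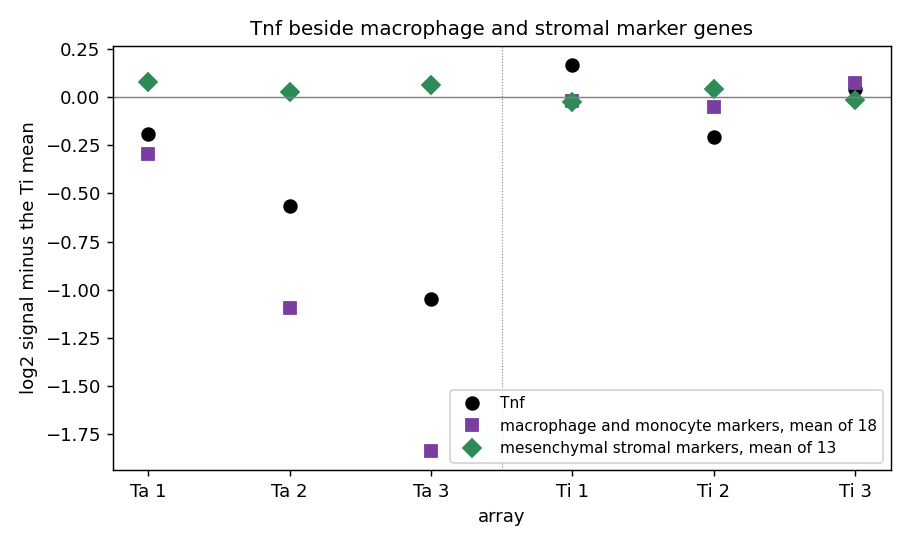
Tnf (circles), the mean of 18 macrophage and monocyte markers (squares) and the mean of 13 mesenchymal stromal markers (diamonds) on each array, as log2 signal minus the mean of the Ti arrays of the same series. On Ta replicates 1 to 3 both Tnf and the macrophage mean lie below the Ti mean, and the stromal markers lie near 0 on all 6 arrays.

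Tnfrsf1a, the gene of the broadly expressed TNFR1, gave 12.06, 12.17 and 12.34 on Ta, against 12.18, 12.17 and 12.20 on Ti. The Ti arrays lay inside the spread of the Ta arrays, and the difference was 0.01 ± 0.09 (95% interval -0.22 to 0.24, adjusted p = 0.969), with its sign turned under quantile and median scaling. Tnfrsf1b, the gene of the inducible TNFR2, gave 11.28, 11.61 and 11.58 on Ta, against 11.16, 10.93 and 11.13 on Ti. Every Ta array lay above every Ti array, by a gap of 0.12, and the difference was 0.41 ± 0.12 (95% interval 0.11 to 0.71, adjusted p = 0.0919).

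The log2 ratio of Tnfrsf1b to Tnfrsf1a within each array, which a scaling constant per array cannot move, was -0.78, -0.57 and -0.76 on Ta, against -1.02, -1.24 and -1.07 on Ti. The ratio was therefore less negative on every Ta array than on any Ti array, by 0.41 on average. The two-sided exact permutation p was 0.1, the smallest that 3 against 3 arrays allow (20 assignments). The ratio compares arrays and not the amounts of the receptors, since each probe has its own brightness.

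None of the 4 adaptor genes of the receptor complex passed the test. Tradd, the death domain adaptor that binds TNFR1 first, gave 11.87, 11.69 and 11.79 on Ta, against 11.77, 11.81 and 11.75 on Ti. Its difference of 0.01 ± 0.08 (95% interval -0.19 to 0.21, adjusted p = 0.966) was smaller than the spread within either group, and its sign turned under quantile and median scaling. Ripk1, the kinase that links the complex to NF-kB and to cell death, gave 10.15, 10.21 and 10.01 on Ta, against 10.42, 10.32 and 10.37 on Ti. All 3 Ta arrays lay below all 3 Ti arrays, by a gap of 0.11, with a difference of -0.24 ± 0.09 (95% interval -0.45 to -0.03, adjusted p = 0.124).

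Traf2, the adaptor that brings the inhibitor of apoptosis proteins to the complex, gave 7.81, 8.24 and 8.18 on Ta, against 8.06, 7.95 and 7.98 on Ti. Ta replicate 1 was the lowest of the 6 arrays and the other Ta arrays the highest, so the difference of 0.08 ± 0.13 (adjusted p = 0.703) joins both directions. Traf1, a TRAF that lacks the RING domain of Traf2 and is itself induced by NF-kB, gave 6.47, 7.02 and 7.25 on Ta, against 6.60, 6.41 and 6.46 on Ti. Ta replicate 1 lay within the Ti range and Ta replicates 2 and 3 above it, and the difference was 0.42 ± 0.20 (95% interval -0.07 to 0.92, adjusted p = 0.218).

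The response genes did not share a size. Cx3cl1 encodes fractalkine, a membrane-bound chemokine that holds monocytes and other leukocytes carrying CX3CR1. It gave 10.48, 11.80 and 12.69 on Ta, against 8.95, 9.19 and 8.99 on Ti. Every Ta array lay above every Ti array, by at least 1.29, but the Ta arrays also lay far from each other (SD 1.11 on Ta and 0.13 on Ti). The difference was 2.61 ± 0.52, or 6.12-fold with a 95% interval of 2.54-fold to 14.8-fold, and the adjusted p was 0.0513 (unadjusted p = 0.00224), just above the threshold of 0.05. By size it ranked 47th among positive differences of the 19571 genes.

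Cx3cl1 was the member printed most often on the array, with 10 spots of 1 probe. After outlier spots were removed, 10 spots remained on each Ta array and on Ti replicate 3, and 9 on each of Ti replicates 1 and 2. The SD over spots was 0.03 to 0.07 on the Ta arrays and 0.03 to 0.09 on the Ti arrays.

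Icam1, the adhesion molecule that leukocyte integrins bind, gave 11.81, 11.93 and 11.69 on Ta, against 11.72, 11.72 and 11.82 on Ti. The groups overlapped fully, with a difference of 0.05 ± 0.09, and the 95% interval of -0.17 to 0.28 leaves out differences as large as that of Cx3cl1. Tnfaip2, first described as a transcript induced by TNF in endothelial cells, gave 10.97, 10.74 and 10.66 on Ta, against 10.61, 10.49 and 10.55 on Ti. Its Ta arrays lay above its Ti arrays by a gap of 0.05, with a difference of 0.24 ± 0.10 (95% interval -0.02 to 0.49, adjusted p = 0.188). In contrast to Cx3cl1, Tnf and Traf1, the Ta array farthest from Ti for Tnfaip2 was replicate 1.

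**Figure D3:**
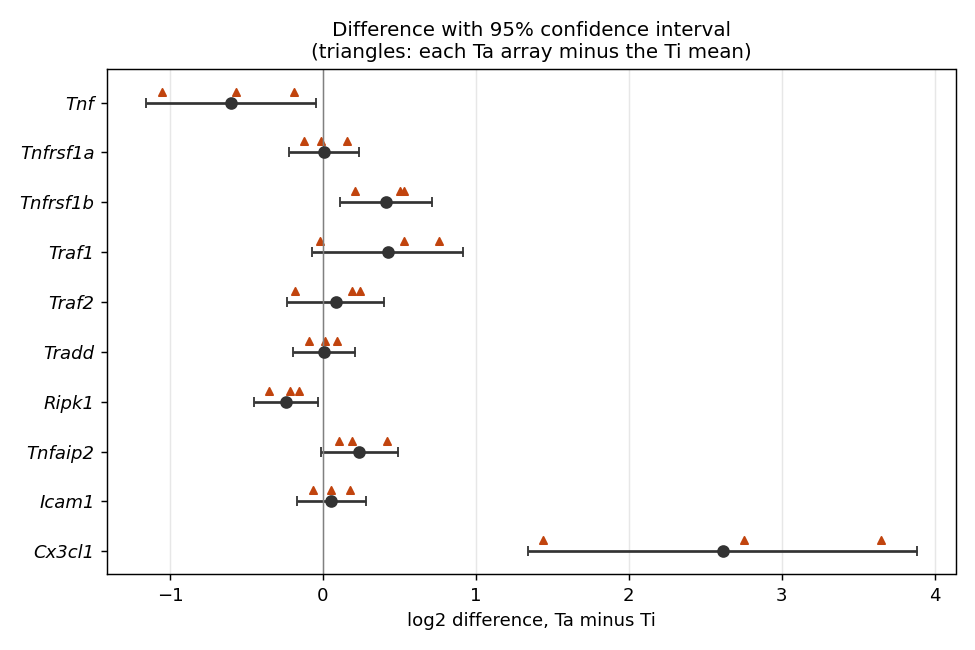
Log2 difference (Ta minus Ti, horizontal axis) of each gene as a circle with its 95% confidence interval from limma; triangles are the 3 Ta arrays, each minus the mean of the Ti arrays. The intervals of Tnf, Tnfrsf1b, Ripk1 and Cx3cl1 leave out 0 before adjustment over all genes, and no gene passed after it.

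Single arrays decided which members passed. Without Ta replicate 1, limma called 4 members: Cx3cl1 (3.20 ± 0.28, adjusted p = 0.00799), Traf1 (0.64 ± 0.11, 0.0253) and Tnfrsf1b (0.52 ± 0.11, 0.0351) were higher and Tnf (-0.81 ± 0.19, 0.0476) was lower on Ta. The same setting called 3212 of all 19571 genes, or 16.4%. Without any other single array 0 members passed. The adjusted p of Cx3cl1 was then between 0.0628, without Ti replicate 2, and 0.179, without Ta replicate 2, and its difference between 2.10, without Ta replicate 3, and 2.69. Cx3cl1 also passed with normexp background correction (2.48, adjusted p = 0.0220, with 13.3% of all genes called), with probes well above background on all 6 arrays (0.0384, 6.61%), with trend and robust variance (0.0374, 10.7%) and with every probe fitted on its own (0.0495, 4.31%). The Ta arrays and Ti replicate 1 shared a row of the slide. Within that row Ta minus Ti was 2.71 ± 0.81 for Cx3cl1 (adjusted p = 0.210), 0.32 ± 0.18 for Tnfrsf1b (0.361), -0.29 ± 0.13 for Ripk1 (0.284) and -0.77 ± 0.34 for Tnf (0.282), from 1 Ti array only.

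**Figure D4:**
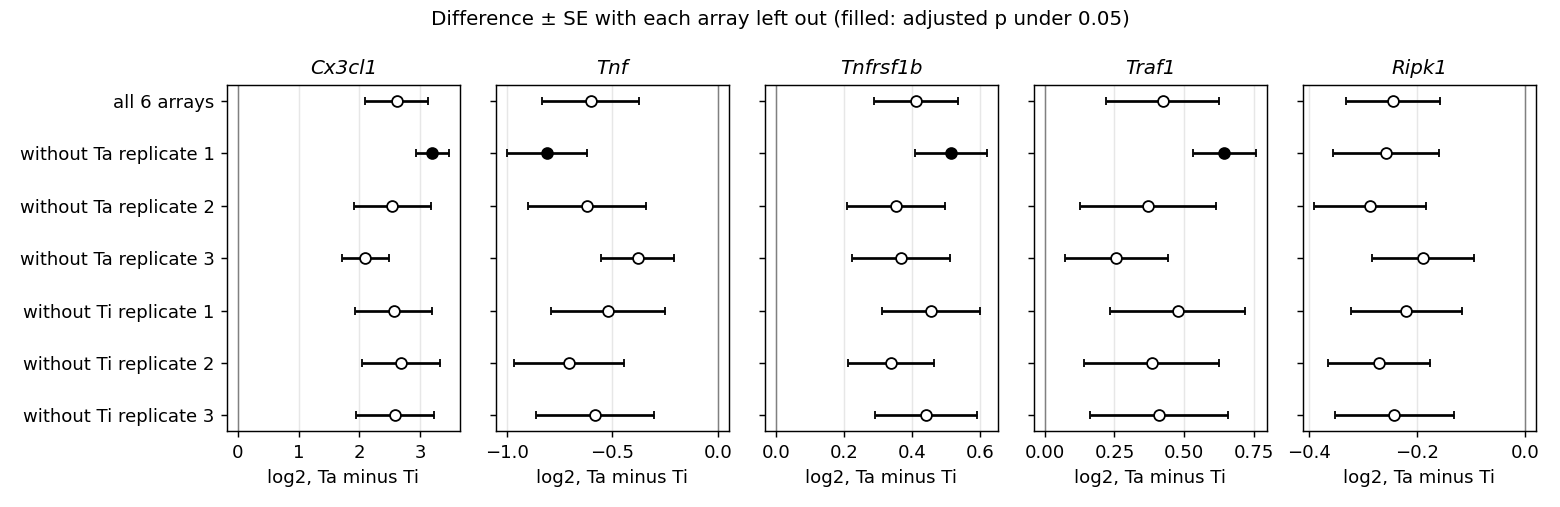
Log2 difference (Ta minus Ti, each panel with its own scale) ± SE of 5 members with all 6 arrays and with each array left out; filled circles have an adjusted p under 0.05. Cx3cl1, Tnf, Tnfrsf1b and Traf1 are filled without Ta replicate 1 and open in the other settings, and Ripk1 is open in all 7.

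The other genes of the pathway were counted in 5 lists, which together with the members were chosen with earlier results of these arrays known. Tnfaip3, Tnfaip6, Tnfaip8 and Fas each stand in 2 of the lists. In the list of TNF receptor signalling, 40 of 41 genes were tested, and 2 rose, 0 fell and 38 did not pass (median 0.05), a share near the 4.15% of all genes. The count was 1 with quantile or median scaling, and 0 when Ta replicate 2 or 3 or Ti replicate 1 or 3 was left out. Without Ta replicate 1 it was 10, where 16.4% of all genes were called. Birc3, an inhibitor of apoptosis that binds TRAF2, rose to 8.14, 9.01 and 8.67 on Ta, against 7.41, 7.58 and 7.48 on Ti (1.12 ± 0.22, adjusted p = 0.0495). Traf3, an adaptor known for restraining the non-canonical NF-kB pathway, gave 9.95, 10.24 and 10.11 on Ta, against 9.09, 9.41 and 9.15 on Ti (0.88 ± 0.12, adjusted p = 0.0397). A second probe of Traf3 differed by -0.32, so that gene is uncertain. Tnfaip3, the deubiquitinase A20 that ends TNF signalling, differed by 0.07 ± 0.28 (adjusted p = 0.891), and is named after its values were seen.

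In the list of other TNF response genes, 47 of 49 were tested (not Cxcl11 and Sele), and 15 rose, 1 fell and 31 did not pass. The list median was 0.62. The called share of all genes was 4.15%, and 41 of 47 lay above 0, against 53.8% of all genes. Nos2, the inducible nitric oxide synthase, lay at 5.69, 8.60 and 8.25 on Ta and was above background on 0 of 3 Ti arrays, so its signal was at least 15.5-fold higher on Ta. It entered the test only through the Ta arrays, and without it 14 genes of the list rose. The neutrophil chemokine gene Cxcl2 rose to 12.25, 14.27 and 13.67 on Ta, against 7.71, 9.63 and 7.76 on Ti (5.03 ± 0.70, adjusted p = 0.0397). Csf3, which encodes the granulocyte growth factor G-CSF, gave 10.01, 12.41 and 12.16 on Ta, against 7.99, 8.38 and 8.26 on Ti (3.32 ± 0.62, adjusted p = 0.0474). Csf2, which encodes the related factor GM-CSF, gave 4.98, 6.45 and 6.32 on Ta, against 3.60, 1.87 and 2.75 on Ti (3.18 ± 0.56, adjusted p = 0.0452). Just 1 of the 3 Ti arrays detected Csf2, and with the other 2 set to the dimmest detected signal the difference was 2.29. In these genes Ta replicate 1 was the lowest Ta array, as for Cx3cl1. The gene that fell was Tslp (-0.98 ± 0.19, adjusted p = 0.0492), an epithelial and stromal cytokine.

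The list holds other vascular adhesion genes and NF-kB inhibitors, named here after their values were seen. Selp, the gene of P-selectin, rose by 2.01 ± 0.36 (adjusted p = 0.0454). Vcam1, a partner of Icam1 in leukocyte adhesion, lay at 11.87, 12.04 and 12.29 on Ta, against 11.41, 11.64 and 11.13 on Ti (0.67 ± 0.17, adjusted p = 0.0693). Icam2 differed by -1.11 ± 0.42 (adjusted p = 0.141). Nfkbia, the inhibitor that NF-kB itself induces, rose by 1.05 ± 0.20 (adjusted p = 0.0486). Nfkbie, another inhibitor of NF-kB, differed by 0.24 ± 0.10 and did not pass (adjusted p = 0.181).

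The count of response genes also rested on single arrays. It was 0 when Ta replicate 2 or 3 or Ti replicate 1 or 3 was left out, as was the count over all genes (3812 to 4467 at an unadjusted p under 0.05), and it was 27 without Ta replicate 1 and 20 without Ti replicate 2. The list median stayed between 0.54 and 0.72 in these settings. Of 8 neutrophil markers 4 were tested. S100a8 (2.95 ± 0.50, adjusted p = 0.0447) and Camp (1.68 ± 0.30, 0.0452) rose, while Mpo (1.66 ± 0.34, 0.0516) and Csf3r (-0.88 ± 0.44, 0.232) did not pass. Their summed signal was 304 to 629 on Ta and 121 to 180 on Ti. Cxcr2, Elane, Ngp and S100a9 were above background on 0 arrays. The part of neutrophil or macrophage markers in the response genes was not tested.

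**Figure D5:**
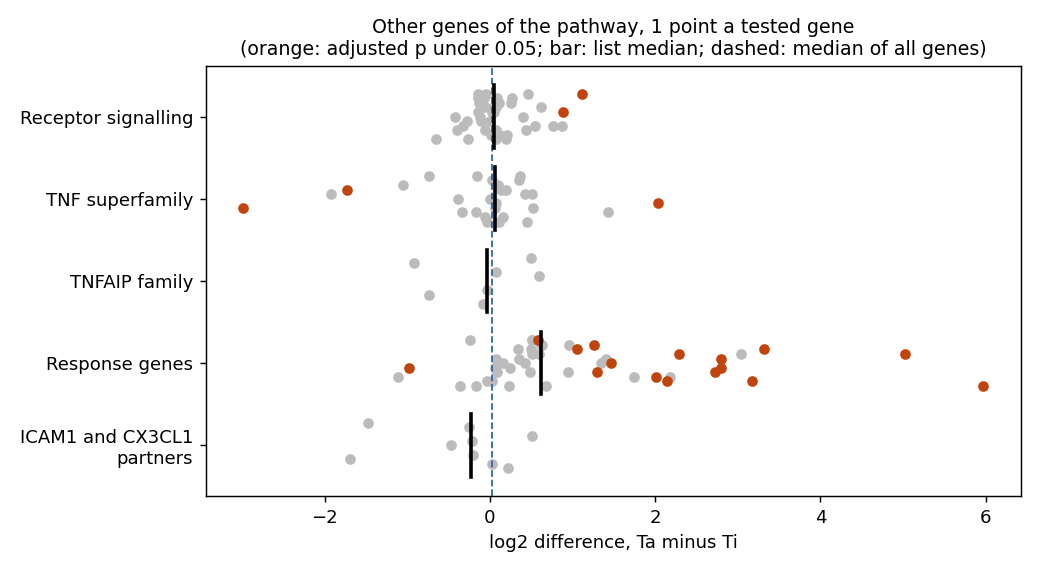
Log2 difference (Ta minus Ti) of each tested gene of 5 lists around TNF, 1 point a gene, orange where the adjusted p was under 0.05; black bars are list medians and the dashed line is the median of all genes, 0.03. The median of the response genes is 0.62, and the medians of the other lists lie between -0.22 and 0.06.

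In the TNF superfamily, 28 of 41 other ligands and receptors were tested, and 1 rose, 2 fell and 25 did not pass (median 0.06). Over all genes, 4.15% passed. Tnfrsf9, the gene of the costimulatory receptor 4-1BB, lay at 4.60, 4.91 and 5.77 on Ta and was above background on 0 of 3 Ti arrays, which makes it at least 2.86-fold higher on Ta. Tnfsf13b, which encodes the B cell survival factor BAFF, was above background on 0 of 3 Ta arrays and lay at 5.31, 5.24 and 5.70 on Ti, at least 3.52-fold lower on Ta. Both entered the test only through the group where they are high, so their passing carries no weight, and the remaining call of the list is Tnfrsf11b. Tnfrsf11b, which encodes osteoprotegerin, the decoy receptor for RANK ligand, fell to 9.65, 8.97 and 8.77 on Ta, against 11.09, 10.33 and 11.17 on Ti (-1.73 ± 0.31, adjusted p = 0.0456). Without Ta replicate 1 the list had 8 calls, where 16.4% of all genes were called. It had 0 when Ta replicate 2 or 3 or Ti replicate 1 or 3 was left out.

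Tnfaip2 shares a name, not a family, with the other TNFAIP genes. Of these 7, all were tested and 0 passed (3 at an unadjusted p under 0.05, against 30% of all genes), with 4 below 0 and a median of -0.03. The 2 largest differences were in Tnfaip8l3 (-0.92 ± 0.32, adjusted p = 0.121) and Tnfaip8l2 (-0.74 ± 0.32, 0.183). The partners of Icam1 and Cx3cl1, which are integrins, the fractalkine receptor, membrane linkers and a shedding protease, had 9 of 11 genes tested and 0 past the test (4 at an unadjusted p under 0.05, against 30% of all genes), with a median of -0.22. Itgax and Itga4, integrin alpha chains of leukocytes, had the 2 largest differences, -1.69 ± 0.65 (adjusted p = 0.147) and -1.47 ± 0.41 (0.0822). Cx3cr1, the receptor of fractalkine, gave 8.44, 8.59 and 8.91 on Ta, against 8.19, 8.31 and 7.93 on Ti (0.50 ± 0.16, adjusted p = 0.0999), and is named after its values were seen. Its Ta arrays lay above its Ti arrays, as those of its ligand did and as in 19.5% of all genes.

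The genes with the most similar pattern were found by the root mean square difference of centred log2 signals over the 6 arrays, a description that draws on the group difference too. For Tnf they were Slc37a2 (0.04), F8 (0.05) and Agmat (0.07). For Cx3cl1 they were Pvalb (0.19), Mmp10 (0.23) and Scin (0.26), each lower on Ta replicate 1 than on Ta replicates 2 and 3. For Tnfrsf1b they were Rab32, Exosc2 and Fbxo48 (0.04 to 0.05), for Tnfrsf1a St6galnac4, Phldb1 and Eif2b2 (0.02 to 0.03) and for Traf1 Prc1, Shroom2 and Bmp2 (0.06 to 0.07). For Traf2 they were Akirin2, Hras and Nuak2, for Tradd Slc35e2b, Pyroxd2 and Grk5, and for Ripk1 Tfpt, Bnip2 and Casp8ap2 (0.01 to 0.04 for these 3 members). For Tnfaip2 they were Arsk, Macf1l1 and Sohlh1 and for Icam1 Psap, Rbm25 and Ywhab (0.02 to 0.04 for both).

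For the arrays as a whole, 812 of 19571 genes passed, 522 higher and 290 lower on Ta, and with median scaling the split was 416 and 362. All 6 arrays lay on 1 slide, 62.7% to 65.9% of spots exceeded background by the scanner software's criterion, and the upper quartile of the signal was 1848 to 2388. The marker counts cannot check the label of stromal cells, since 13 of 14 stromal markers (not Lepr) and all 18 macrophage markers were tested. The summed stromal signal was 288579 to 311109 on Ta and 292742 to 303495 on Ti, beside the macrophage sums given above. Of other lists, 8 of 10 endothelial (not Cldn5 and Emcn), 5 of 9 T and NK cell, 5 of 7 mast cell and 1 of 5 B cell markers were tested. Of the mast cell markers, Kit (-2.56 ± 0.49, adjusted p = 0.0486) and Cpa3 (-1.93 ± 0.29, 0.0408) fell, Cpa3 with 1 of 3 Ta arrays well above background. Cma1 was above background on 0 of 3 Ta and 3 of 3 Ti arrays. Hdc (0.73 ± 0.16, adjusted p = 0.0563) and Fcer1a (-0.25 ± 0.38, 0.685) did not pass. The list median was -1.93, and the summed signal was 602 to 657 on Ta and 578 to 685 on Ti. Hdc was the brightest of these genes on all 6 arrays and weighs most in that sum. Of the T and NK cell markers, Cd2 was above background on 3 of 3 Ta and 0 of 3 Ti arrays, 0 others passed, and the median was -0.91. The part of these cell types in the TNF genes was not tested. The summed signal of the endothelial list, a cell type known for Icam1 and Cx3cl1, was 2392 to 2630 on Ta and 2315 to 2527 on Ti. That sum is carried mostly by Vwf and Egfl7, the brightest genes of the list. The mean log2 signal of the endothelial list was 6.42, 6.04 and 5.71 on Ta, against 6.97, 6.54 and 6.78 on Ti. Of its genes, 6 of 8 lay below 0, with a median of -0.45. The test was passed by 0 of them (3 at an unadjusted p under 0.05, against 30% of all genes). Among them Erg differed by -3.07 ± 0.78 (adjusted p = 0.0708) and Vwf by 0.06 ± 0.11 (0.731).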

How the data were processed

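The 6 one-colour arrays (Cy3) each hold the RNA of 1 sample. Per the file headers, the deposited intensity of each spot is the processed signal of Agilent Feature Extraction (12.0 per the submitters' processing notes, which also name limma), with background subtracted and no scaling between arrays. From these intensities, log2 values were scaled to the 75th percentile of 58717 non-control spots, outlier spots were removed and spots of a probe averaged. Of 45598 probes, 25756 exceeded background on 3 or more of 6 arrays and had a value on all, and the brightest probe stood for each of 19571 genes. Names came from RefSeq for 31220 probes. Groups were compared with limma 3.58.1 in R 4.3.3 (lmFit, eBayes, two-sided, Benjamini-Hochberg, threshold 0.05); the step was tested on simulated data. SE is moderated. "At least" folds set the brighter mean against the higher of the dim signal and the lowest signal well above background.

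The members and lists were chosen with earlier results of these data known. All members are named, then up to 4 called genes a list with the largest difference (2 by size where none passed). The 3 nearest patterns of each member are named too. Other names, such as Tslp and single marker genes, fall outside this rule, and not all are marked where they stand. With 3 arrays a group, their number limits the precision. Alternatives covered scaling, background correction, filters, variance, probes, blocks and single arrays. Replicate numbers were not taken to pair the samples.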

Additional observations from a re-analysis of the deposited data

How the results depend on the processing

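Of all genes, limma called 812 as reported, 2088 with trend and robust variance, 2597 with normexp background correction, 0 with no filter on dim probes (5814 at an unadjusted p under 0.05), 0 with slide row as a block (3830 unadjusted), and 0 to 3212 with an array left out. Members called were 0 as reported (4 unadjusted), 1 (Cx3cl1) with normexp correction, the stricter filter, trend and robust variance or every probe fitted, and 0 to 4 with an array left out. The Ta minus Ti difference of the log2 ratio of Tnfrsf1b to Tnfrsf1a was 0.32 to 0.45 in the 16 alternatives run. Its sign is no further support. A scaling constant per array cancels in the ratio, and with no overlap between groups, leaving out an array could not turn the sign. The sign turned for Tnfrsf1a with quantile scaling (-0.0086), median scaling (-0.028) and normexp correction (-0.0072), and for Tradd with the same settings (-0.017, -0.028 and -0.0066). With an array left out, Tnfrsf1a ranged from -0.067 to 0.071, Tradd from -0.038 to 0.055 and Icam1 from -0.0071 to 0.11. These values lie within the spread between arrays; the cause was not tested. The replicate number as a block called 8 of all genes and 0 members (Cx3cl1 adjusted p = 0.0829); samples of the same number had correlated deviations of 0.06, 0.13 and -0.18, so the numbers were not taken to pair them. Dim signal limits the first Tnf probe, Nos2, Csf2, Tnfrsf9, Tnfsf13b and Itgax, and also markers such as Erg, Cpa3, Cma1 and Cd2.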
